A study of Mus musculus with 12 samples.

Results

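Vehicle-treated GR-C3 knockin mouse embryonic fibroblasts (MEFs) were compared with vehicle-treated wild-type (WT) MEFs, chosen by their sample titles. These were 6 of the 12 arrays of the series, 3 per genotype. Nr3c1 encodes the glucocorticoid receptor (GR), and the knockin carries a changed exon 2 in which the start codon of the GR-C3 isoform is intact and the start codons of the other translational isoforms are ATC. The allele came from 1 ES cell clone by Cre-mediated exchange, its hygromycin cassette was removed with Flp-deleter mice, and the line was kept on a C57Bl/6 background. WT and homozygous knockin MEFs were made from E12.5 embryos by intercrossing, and which parts of the embryo were used is not given in the sources used here. The cells of both groups received vehicle for 6 hours, and the other 6 arrays held the same genotypes after 6 hours of 100 nM dexamethasone (Dex), a synthetic GR ligand. Replicates are named biological in the labels, but whether each had its own embryo or culture is not said, and p-values measure only the spread between these samples.

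MEFs are a mixed culture of mesenchymal cells that grow out of the embryo, and cells of the body wall, limbs and face all contribute to them. Connective tissue cells keep much of the Hox code of the body site they came from: the low-numbered Hox genes mark anterior levels, and the high-numbered ones mark posterior levels and the distal limb. The GR is a ligand-activated transcription factor, and start codons further along its mRNA give receptor isoforms with a shorter N-terminal activation region, of which GR-C3 is one.

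A level is the log2 processed signal minus that of its array's 75th percentile, so 0 is the level of that percentile, and levels of different genes cannot be set against each other. A difference is GR-C3 minus WT, followed by its standard error (±), and a gene was called at a Benjamini-Hochberg adjusted p under 0.05 from limma. Between 70.7 and 78.4% of probes were well above background on the 12 arrays, and 3 arrays a group limit how precise a difference can be. WT vehicle replicate 1, as labelled, was unlike its group: over genes, which are no independent replicates, its correlation with the others was 0.983 and theirs with each other 0.998. It correlated better with the WT Dex arrays, at 0.988 to 0.989, so the all-array WT mean includes 1 array that is closer to the Dex arrays than to its own group. Differences and counts are given over all arrays, and a second value in parentheses or after "and" is without that array. Folds are over all arrays unless stated, as are second probes. Where a called gene has 1 value only, it was called in the same direction in both fits. It was alone on slide 1, the other WT vehicle arrays were on slide 2, and the GR-C3 vehicle arrays were on slides 3 and 4. No slide held both vehicle groups, so no difference within a slide exists. A fit with slide as a block reaches this comparison only through the Dex arrays, and where it ends the call of a named gene this is stated. The groups also differed in sex-linked transcripts. The Y-linked Ddx3y lay at 1.91, 1.44 and 1.48 in WT and was not well above background on any GR-C3 array, while the X-inactivation transcript Xist was higher in GR-C3 by 1.5 (1.38). All 5 sex-linked genes checked, Xist among them, were well above background on all 3 WT arrays. Sex and genotype cannot be told apart in these arrays, and the results below are on autosomal genes. Nr3c1 itself lay at 1.2, 1.80 and 1.80 in WT and at 1.86, 1.83 and 1.86 in GR-C3 by its brightest probe, and was not called (adjusted p = 0.258, and 0.705 without that array). The 3 other Nr3c1 probes gave differences between -0.36 and 0.02 over all arrays, and -0.47, -0.50 and -0.57 without WT vehicle replicate 1. The knockin alters start codons in a transcript that is still made, so this level is no check of the genotype.

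The genotypes differed widely before any hormone was added. Of 19752 autosomal genes tested, 4876 (24.7%) were called, 2876 higher in GR-C3 (14.6%) and 2000 lower (10.1%). Without WT vehicle replicate 1 there were 5385 called genes (27.3%), 3197 higher (16.2%) and 2188 lower (11.1%). A called difference of at least 2-fold was found for 1106 genes (5.6%), 540 higher (2.73%) and 566 lower (2.87%), and for 1048 genes (5.31%) without that array. In all, 4135 genes were called in both fits, each in the same direction, and 880 of these were at least 2-fold in both. The median difference over autosomal genes was 0.11 (0.12), so small positive differences lie near the middle of all genes. The split into higher and lower depended on the processing. With slide as a fixed block 1526 genes were called, 711 higher and 815 lower (46.6% higher, against 59%). With normexp background correction on the deposited local backgrounds, 356 were called, 148 higher and 208 lower (41.6% higher). In bulk RNA, fewer cells of a type and less RNA per cell cannot be told apart, and this holds for every cell type marker below.

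The Hox genes, which encode the homeodomain factors of the body axis, were mostly higher in GR-C3 cells. Of 35 Hox genes measured, 27 were called higher and 2 lower (28 and 2 without WT vehicle replicate 1), with a median difference of 1.64 (1.62), against 0.11 (0.12) over all autosomal genes. Higher genes numbered 7 of 11 in the Hoxa cluster, 9 of 9 in Hoxb, 5 of 7 in Hoxc and 6 of 8 in Hoxd. Later paralogue groups had the higher medians. The paralogues 1 to 4 had a median of 0.67 (0.65) with 5 of 10 called higher and 2 lower. The paralogues 5 to 8 had 1.98 (1.88), with 10 of 11 called higher (11 without that array), and the paralogues 9 to 13 had 2.06 (2.08), with 12 of 14 called higher. With slide as a fixed block 23 of the 35 were called higher and 1 lower.

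Hoxd13, the last gene of its cluster, which patterns the digits and the hind end of the gut and urogenital tract, had the largest Hox difference. Its probe lies at chr2:74514907-74514966 in build mm7. Its level was -5.41, -4.81 and -5.01 in WT and 0.71, 0.68 and 0.84 in GR-C3. The groups did not overlap in 6 of the 8 Hoxd genes measured, Hoxd13 among them, and this share over all autosomal genes is not reported here. The difference was 5.82 ± 0.22 (56.5-fold, adjusted p = 8.81e-08), and 5.65 ± 0.22 without WT vehicle replicate 1. A second Hoxd13 probe gave a smaller difference of 4.19 (4.10). Hoxd11, which shapes the forearm and the vertebrae, was not well above background on any WT array and was at least 7.5-fold higher in GR-C3 (at least 7.72-fold without that array). Hoxd10 lay at -4.64, -5.02 and -4.60 in WT and at -2.25, -2.25 and -2.0 in GR-C3. That is a difference of 2.59 ± 0.15 (2.64 ± 0.16). Hoxd12, which lies between Hoxd11 and Hoxd13, was not called in either fit, at 0.45 (0.62).

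Thoracic genes were higher as well. Hoxa7 lay at 0.27, 0.18 and 0.28 in WT and at 2.72, 2.81 and 2.48 in GR-C3, a difference of 2.42 ± 0.15 (adjusted p = 1.88e-06). Hoxc9, which sets thoracic vertebral identity, lay at -1.04, -0.76 and -0.79 in WT and at 1.39, 1.48 and 1.52 in GR-C3, a difference of 2.32 ± 0.11 (2.24 ± 0.11). Hoxb8 rested on WT vehicle replicate 1, the only WT array on which it was well above background: the difference was 2.49 ± 0.61 with it, and at least 6.01-fold without it. Hoxb6 probes disagreed, one giving 2.18 (1.97) and another -0.05 (-0.01).

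Hoxa2, the anterior gene that patterns the neck and the second pharyngeal arch, went the other way. It lay at -1.90, -1.93 and -1.68 in WT and at -3.67, -3.74 and -3.40 in GR-C3, a difference of -1.76 ± 0.14 (-1.80 ± 0.15). The Hox cofactors, TALE homeodomain proteins that bind DNA with Hox proteins, were mostly lower: 5 of 9 were called lower and 1 higher, with a median of -0.56 (-0.43). Meis1 lay at -0.71, -0.54 and -0.52 in WT and at -1.93, -2.11 and -1.88 in GR-C3, a difference of -1.39 ± 0.14 (-1.45 ± 0.16). Its relatives Pbx3 and Meis2 differed by -1.02 (-0.90) and -0.86 (-0.73). Pknox1 was the one called higher, at 0.48 (0.45). With slide as a block Pbx3, Meis2 and Pknox1 were not called, with adjusted p between 0.0604 and 0.105.

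**Figure D1:**
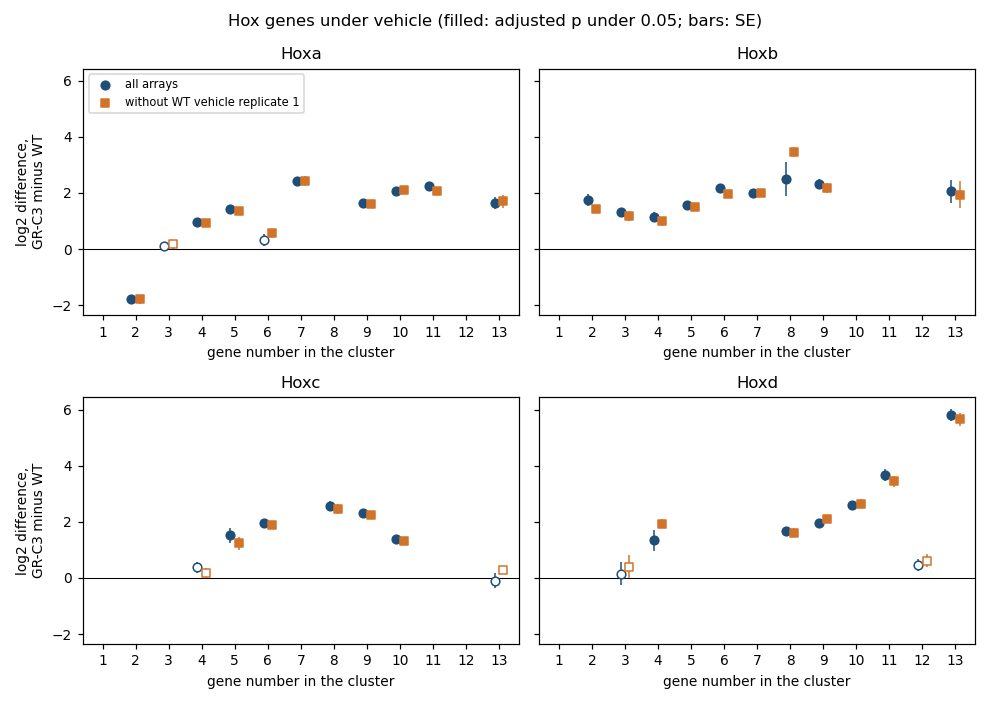
Difference in log2 level (GR-C3 minus WT, vehicle) of the Hox genes shown by their number in the cluster, 1 panel per cluster; circles are the fit over all arrays, squares the fit without WT vehicle replicate 1, bars the standard error, and filled symbols adjusted p under 0.05. Most genes of number 5 and above lie above 0, Hoxd13 reaches 5.82, and Hoxa2 lies at -1.76.

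Limb and trunk factors were a mixed group with large members. Of 33 measured, 13 were called higher and 3 lower (13 and 4 without WT vehicle replicate 1), with a median of 0.33. Tbx4, the T-box factor of the hindlimb and the lung mesenchyme, lay at -7.94, -6.42 and -6.36 in WT, where 2 of the 3 arrays were well above background, and at -3.45, -3.58 and -3.61 in GR-C3. The difference was 3.36 ± 0.35 (2.84 ± 0.18), a fold of 10.3 (7.17). Pitx1, the homeodomain factor that acts ahead of Tbx4 in the hindlimb, lay at 1.12, 1.05 and 0.90 in WT and at 2.59, 2.65 and 2.65 in GR-C3, a difference of 1.60 ± 0.11 (1.65 ± 0.11). Hindlimb factors were not alone in this. Tbx5, the forelimb and heart T-box factor, lay at -3.81, -4.53 and -4.31 in WT and at -2.90, -2.94 and -2.92 in GR-C3, a difference of 1.30 ± 0.18 (1.5 ± 0.15). Lhx9, a LIM homeodomain factor of limb bud and gonad, lay at -1.67, -1.19 and -1.35 in WT and at 1.04, 1.13 and 1.30 in GR-C3, a difference of 2.56 ± 0.14 (5.88-fold). The proximal limb factor Shox2 and the interlimb and limb factor Tbx3 were higher by 1.27 (1.14) and 1.19 (1.13), and Wt1, a factor of mesothelium and kidney, by 1.70 (2.08). Nkx3-2, a repressor that promotes cartilage formation in the trunk, was lower: -2.78, -2.52 and -2.52 in WT against -4.85, -4.79 and -4.61 in GR-C3, a difference of -2.14 ± 0.13 (-2.23 ± 0.13). Osr2, a zinc finger factor of palate and joints, was also lower, at -1.0 (-0.92).

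Among 33 craniofacial factors, 11 were called higher and 10 lower (13 and 11 without WT vehicle replicate 1). With slide as a block 5 were higher and 7 lower. Alx1, a homeodomain factor of the frontonasal mesenchyme, lay at -2.95, -3.32 and -3.36 in WT and at -0.84, -0.76 and -0.61 in GR-C3, a difference of 2.47 ± 0.13 (5.54-fold). Alx4, also a frontonasal and limb factor, differed by 1.24 (1.34) by one probe and by 0.17 (0.50) by another. Barx1, a homeodomain factor of the jaw and stomach mesenchyme, lay at 1.02, 0.91 and 0.98 in WT and at -1.18, -1.25 and -1.27 in GR-C3, a difference of -2.20 ± 0.10 (4.61-fold lower). Foxd1, a forkhead factor of kidney stroma and facial mesenchyme, lay at 1.42, 1.40 and 1.62 in WT and at -0.74, -0.80 and -0.63 in GR-C3, a difference of -2.21 ± 0.12 (-2.24 ± 0.13). Neither gene overlapped between the genotypes. Other lower factors of the list were Dlx5, which differed by -1.90 (-1.83), Dlx1 by -1.77 (-1.52), Pax9 by -1.35 (-1.08), Six2 by -1.26 (-1.34) and Lhx8 by -0.92 (-1.04). Factors also known from jaw and palate were called higher, with Msx1 at 0.80 (0.91), Msx2 at 0.65 (0.71) and Tfap2a at 0.78 (0.78), and all 3 lost their calls with slide as a block (adjusted p between 0.0618 and 0.17). WT vehicle replicate 1 had no value for Tfap2a. Dlx5 was not called with slide as a block (-1.42, adjusted p = 0.0552). Eya2, a transcriptional cofactor and phosphatase, was higher by 1.96 (2.20), and Foxd3, a neural crest specifier, by 1.54 (1.44).

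**Figure D2:**
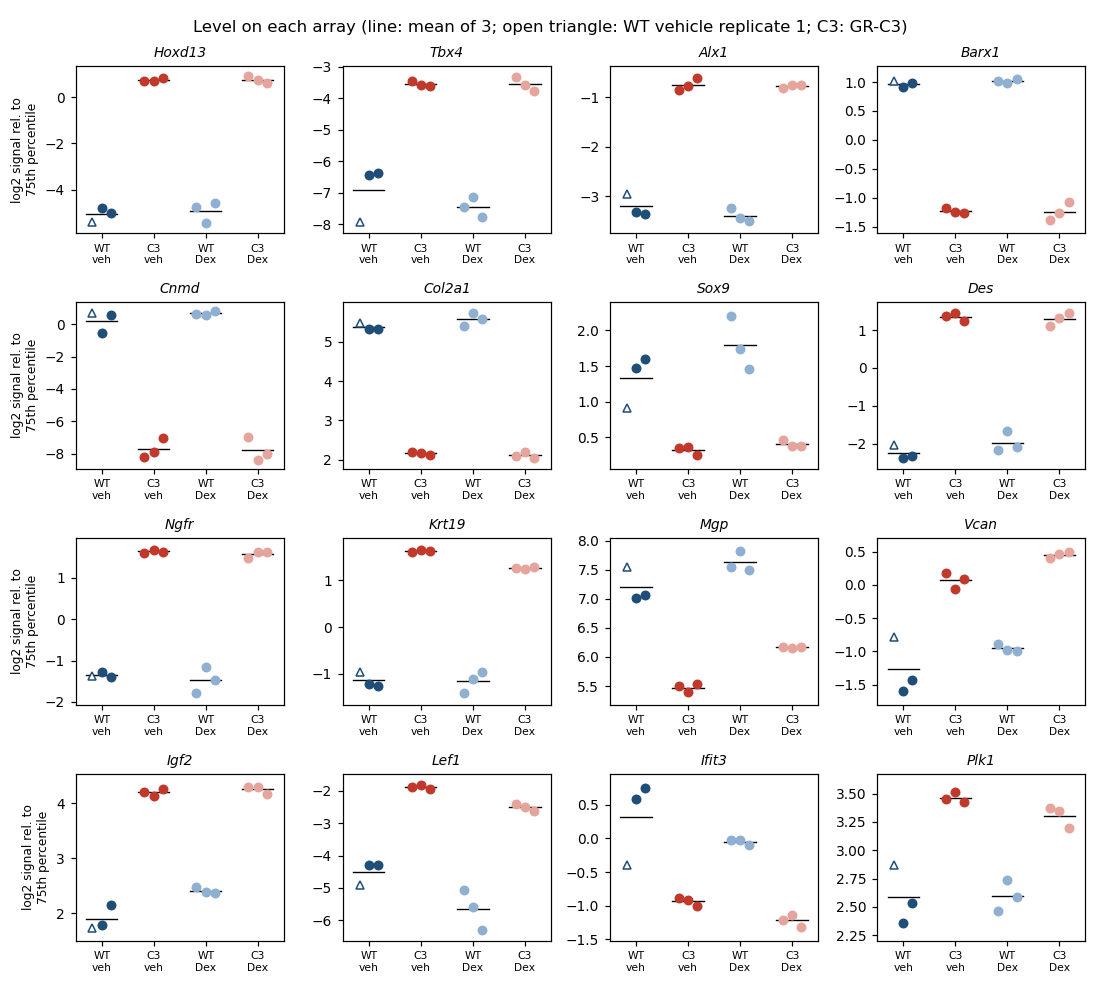
Log2 level of 16 genes (scaled to each array's 75th percentile) in the 2 genotypes under vehicle and under Dex; points are arrays, lines are group means, and the open triangle is WT vehicle replicate 1. Hoxd13, Tbx4 and Alx1 are higher and Barx1, Cnmd and Col2a1 lower in GR-C3 cells under vehicle and under Dex.

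The cartilage and bone program was lower in GR-C3 cells. Of 32 skeletal lineage genes measured, 21 were called lower and 1 higher, with a median of -1.01 (-0.93), and 10.1% of all autosomal genes were called lower. The summed linear signal of the list was 310 to 329 on the WT arrays and 166 to 181 on the GR-C3 arrays. With slide as a fixed block 14 were called lower. Col2a1, the main collagen of cartilage, has its probe at chr15:97979237-97979296 in build mm7. It lay at 5.48, 5.33 and 5.32 in WT and at 2.21, 2.17 and 2.13 in GR-C3. The difference was -3.21 ± 0.10 (9.25-fold lower, adjusted p = 6.5e-08), and of its other probes one gave -4.19 and another -0.15. Cnmd, which encodes the cartilage glycoprotein chondromodulin, lay at 0.67, -0.57 and 0.54 in WT and was not well above background on any GR-C3 array, so that it was at least 109-fold lower (at least 93.2-fold without that array). Col9a3, a chain of the collagen that coats cartilage fibrils, lay at 0.26, -0.13 and 0.20 in WT and at -4.11, -3.80 and -4.29 in GR-C3, a difference of -4.18 ± 0.15 (18.1-fold lower).

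The chondrocyte regulators differed less than these matrix genes. Sox9, the master factor of cartilage, lay at 0.91, 1.48 and 1.60 in WT and at 0.36, 0.36 and 0.26 in GR-C3. Its difference was -1.0 ± 0.20 (adjusted p = 0.00456), -1.21 ± 0.18 without WT vehicle replicate 1, and -0.58 with slide as a block, where it was not called (adjusted p = 0.0975). Its partners Sox5 and Sox6 differed by -1.32 (-0.97) and -1.01 (-0.89), and both were also not called with slide as a block (adjusted p = 0.346 and 0.34). Sox5, well above background on 2 of 3 GR-C3 arrays, turned to 0.26 under normexp. The 2 other Sox9 probes gave -0.68 (-0.36) and -1.57 (-1.17), and the 3 other Sox6 probes gave -0.35, -0.71 and -1.09. Comp, a cartilage matrix protein, lay at 2.12, 1.2 and 1.30 in WT and at -0.66, -0.54 and -0.69 in GR-C3, a difference of -2.17 ± 0.20 (-1.88 ± 0.10). Genes of mineralised and hypertrophic tissue were lower too. Dmp1, an osteocyte matrix protein that 2 of 3 GR-C3 arrays measured above background, differed by -3.08 (-2.84), the hypertrophic collagen Col10a1 by -2.06 (-2.24), the osteocalcin gene Bglap by -1.64 (-1.38) and the tendon factor Mkx by -1.33 (-1.24). Alpl, the alkaline phosphatase of bone, was the one called higher, by 0.65 (0.66), and lost its call with slide as a block (adjusted p = 0.23). Runx2 and Sp7, the master factors of osteoblasts, were not called, at 0.00 and 0.06.

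**Figure D3:**
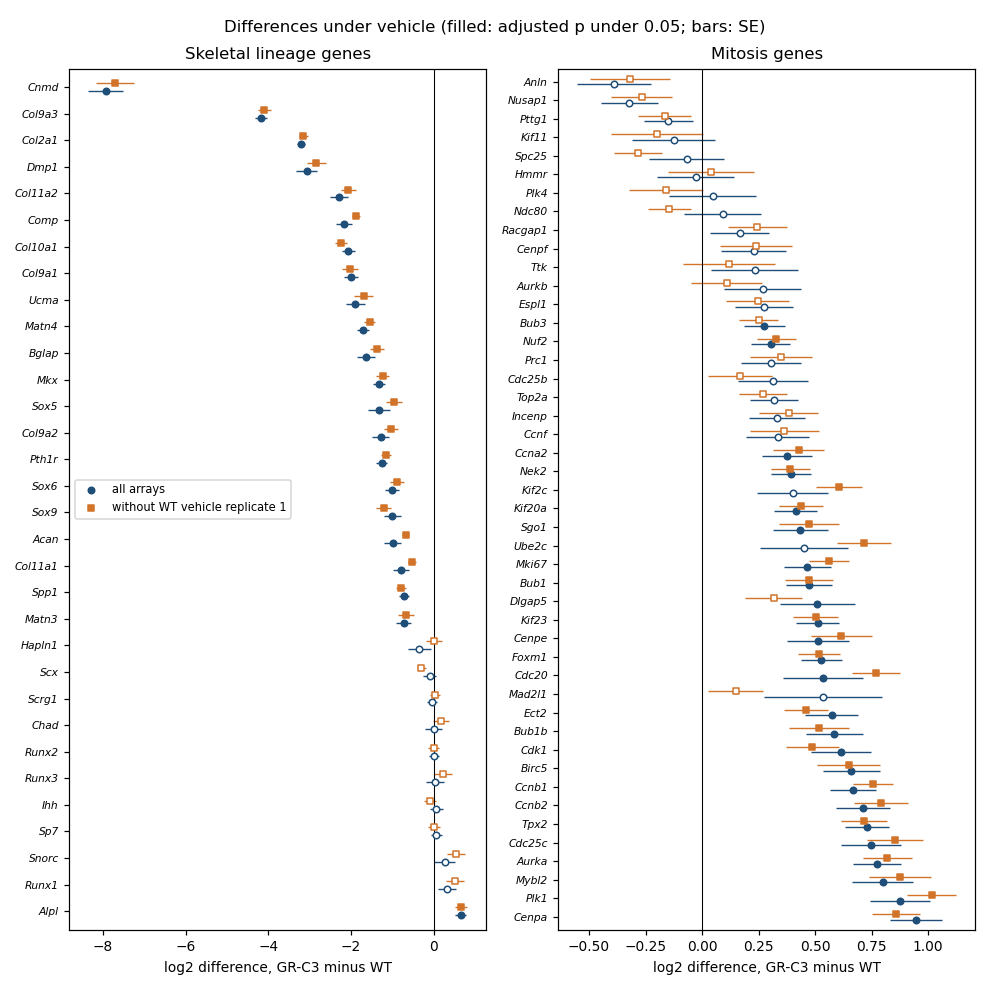
Difference in log2 level (GR-C3 minus WT, vehicle) of the 32 skeletal lineage genes and the 46 mitosis genes measured, ordered by size; circles are all arrays, squares leave out WT vehicle replicate 1, and bars are standard errors. Skeletal genes reach -7.93 (Cnmd, whose GR-C3 signals are near background), and 25 mitosis genes are called higher, with small differences.

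Skeletal muscle genes were higher, with 11 of 25 called higher (13 without WT vehicle replicate 1) and none lower by limma, also at an unadjusted p under 0.05. The median was 0.47 (0.62). Slide as a block gave 6 higher and a median of 0.20. The summed signal of the list was 49.2 to 59 in WT and 81.9 to 98.8 in GR-C3. Des, which encodes the muscle intermediate filament desmin, lay at -2.04, -2.37 and -2.32 in WT and at 1.36, 1.44 and 1.25 in GR-C3, a difference of 3.59 ± 0.15 (12.1-fold), and 3.69 ± 0.16. Myl1, the light chain of fast skeletal myosin, lay at -6.78, -6.64 and -6.28 in WT, well above background on 2 of 3 arrays, and at -2.79, -3.04 and -2.82 in GR-C3, a difference of 3.68 ± 0.20 (3.58 ± 0.21). Other sarcomere genes were split between called and not called. The embryonic myosin Myh3, well above background on 2 of 3 WT arrays, differed by 2.97 (2.78), the cardiac and fetal troponin Tnnt2 by 2.02 (2.15), and the slow troponin Tnni1 by 1.46 (1.61). Neb, Myh8, Myl4, Tnnt1, Tnnc1 and Ttn, also sarcomere genes, were not called, at -0.41, -0.36, -0.24, -0.17, -0.01 and 0.13. The myogenic factors Myod1 and Myog, which commit cells to this lineage, were not called, at 0.21 and 0.25, and Myf5 was not well above background on any vehicle array.

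Contractile genes of smooth muscle and myofibroblasts were higher with smaller differences: 10 of 21 called higher and 1 lower (11 and 1), median 0.40, and only 2 higher and 1 lower with slide as a block. Without GR-C3 vehicle replicate 1 or 2 there were 6 higher, and 5 without WT vehicle replicates 1 and 3. Cnn1, the smooth muscle calponin, lay at 6.51, 6.47 and 6.30 in WT and at 7.03, 7.12 and 6.90 in GR-C3, a difference of 0.59 ± 0.12 (adjusted p = 0.00432). Srf, the factor that binds the CArG box of these genes and of the immediate early genes, differed by 0.60 ± 0.12 (adjusted p = 0.004). Neither was called with slide as a block (adjusted p = 0.189 and 0.149). Itga8, an integrin of smooth muscle and kidney mesenchyme, was the lower one, at -1.57 (-1.44). Because the list is defined by contraction and its factor was measured, the promoters were searched for the CArG box in the 250 bases before the start site, on both strands (RefSeq, GRCm38.p6). It was found in 5 of 17 contractile genes with a promoter sequence (29.4%) and in 1.36% of 12686 autosomal genes tested, as a description of these letters. Of 19 immediate early genes with a promoter sequence, 1 held it (5.26%). Of the contractile genes with a box, Myl9 and Vcl were not called in either fit, at 0.23 (0.29) and -0.05 (-0.19). Cnn1 gave no match. The matches in contractile genes are shown with the box in capitals, Srf among them with 2.
Srf, chr17:46556207-46556252, minus strand: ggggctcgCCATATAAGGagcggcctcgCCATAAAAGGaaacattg
Cnn2, chr10:79988536-79988561, plus strand: cttccacgCCTTATAAGGacatttgc
Myl9, chr2:156775295-156775320, plus strand: agcagaggCCTAATAAGGccgggctg
Ldb3, chr14:34588699-34588724, minus strand: gttacagtCCATTTATGGgcgcagca
Vcl, chr14:20929163-20929188, plus strand: cactatgcCCTTATAAGGagcgcccc

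Markers of other lineages differed beside these programs, and their part in the results was not tested. Of 14 Schwann cell and neural crest markers, 8 were called higher and 3 lower, and the summed signal was 29.0 to 58.5 in WT, the highest being WT vehicle replicate 1, and 25.9 to 27.5 in GR-C3. Ngfr, the neurotrophin receptor of crest cells and mesenchymal progenitors, lay at -1.38, -1.27 and -1.40 in WT and at 1.60, 1.68 and 1.63 in GR-C3, a difference of 2.99 ± 0.14 (7.93-fold), while another probe gave 0.61. Sox10, the defining factor of this lineage, lay at -3.35, -2.39 and -2.61 in WT and at -1.19, -1.03 and -1.11 in GR-C3, a difference of 1.67 ± 0.22 (1.39 ± 0.16). The neuregulin receptor Erbb3 was higher by 2.19 (2.03). Mia, which cartilage also expresses, lay at 0.51, -0.75 and -0.12 in WT and at -3.47, -3.37 and -3.04 in GR-C3, a difference of -3.17 ± 0.25. Of 14 neural markers 7 were higher and 1 lower, with summed signals of 14.8 to 18.7 in WT and 28.1 to 30.1 in GR-C3. Nes, the intermediate filament of progenitors, lay at 1.11, 1.39 and 1.16 in WT and at 2.93, 3.09 and 2.94 in GR-C3. The neuronal genes Elavl4, Nefm and Stmn2 were called higher, at 1.59 (1.70), 1.18 (0.98) and 0.67 (0.59), though Stmn2 was not called with slide as a block (adjusted p = 0.0984). Gap43 was the lower one, at -1.49 (-1.71). Of the untested members, Neurod1 and Ina were not well above background on any of the 6 vehicle arrays and Elavl3 was on 3.

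Of 19 epithelial markers, 6 were higher and 1 lower, and the summed signal was 4.93 to 7.65 in WT and 14.8 to 15.2 in GR-C3. Krt19, a simple epithelial and mesothelial keratin, lay at -0.96, -1.21 and -1.25 in WT and at 1.60, 1.65 and 1.63 in GR-C3, a difference of 2.77 ± 0.12 (6.80-fold). Another keratin gene of the list, Krt18, was higher by 2.30 (2.15). Krt8 differed by 0.44 (0.45) and was called only over all arrays. The defining epithelial genes Epcam, Cdh1, Esrp1 and Elf3 were not well above background on any of the 6 vehicle arrays. The mesothelial list had 3 higher and 5 lower of 9 (3 lower without WT vehicle replicate 2 or 3 or GR-C3 vehicle replicate 2), with Wt1 higher and Upk3b and Msln, its surface markers, at -1.26 (-1.26) and -0.79 (-0.70). Of 12 endothelial markers 2 were higher and 1 lower, with Kdr higher by 1.44 (1.30) and Erg, an ETS factor of endothelium and cartilage, at -3.76 ± 0.21. WT vehicle replicate 1 had no value for Erg. Pecam1, Cdh5 and Tie1 were not well above background on any vehicle array. Leukocyte markers summed to 7.81 to 9.22 in WT and 6.78 to 7.48 in GR-C3, with 1 of 15 higher and 3 lower. The called shares of the endothelial and leukocyte lists were 25% (25%) and 26.7% (33.3%), against 24.7% (27.3%) of all autosomal genes. Fibroblast markers were present in both groups: of 15 fibroblast markers 2 were called higher and 3 lower (2 and 4), and their summed signal was 1090 to 1300 in WT and 1200 to 1490 in GR-C3.

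**Figure D4:**
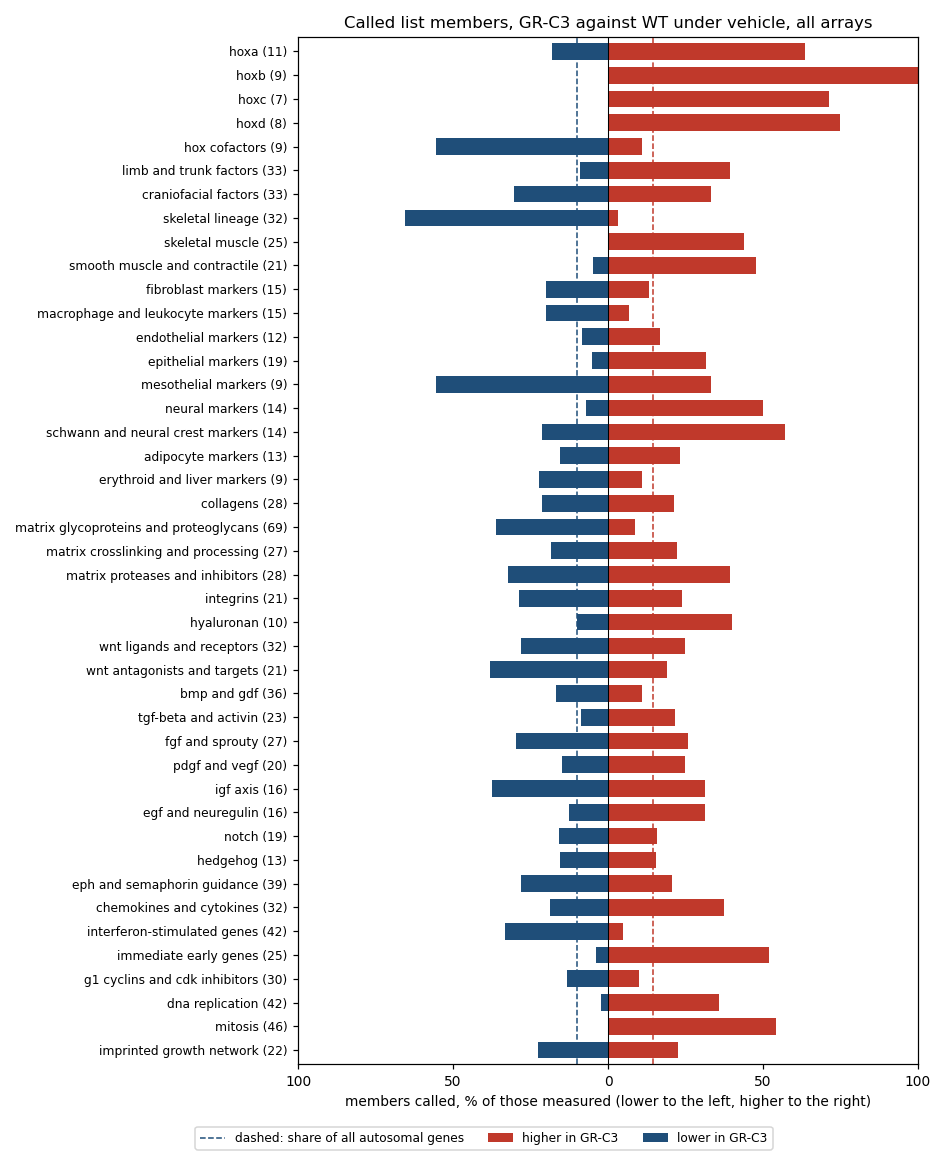
Percent of the measured members of each of 43 gene lists called lower (left) or higher (right) in GR-C3 under vehicle, over all arrays; dashed lines are the shares of all autosomal genes, 10.1% lower and 14.6% higher. The Hox lists reach farthest to the right and the skeletal lineage list farthest to the left.

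Matrix glycoproteins and proteoglycans were more often lower than higher: of 69 measured, 25 were called lower and 6 higher (25 and 9), median -0.18, and with slide as a block 16 were lower and 3 higher. Without WT vehicle replicate 1 and either other WT vehicle array, 16 were lower. Mgp, an inhibitor of calcification made by cartilage and vessel walls, lay at 7.54, 7.02 and 7.06 in WT and at 5.49, 5.40 and 5.53 in GR-C3, a difference of -1.73 ± 0.14 (-1.56 ± 0.11). Prelp, a leucine-rich proteoglycan of connective tissue, lay at 5.71, 5.53 and 5.42 in WT and at 3.55, 3.53 and 3.67 in GR-C3, a difference of -1.97 ± 0.12 (-1.89). The related small proteoglycans Ecm2, Omd, Aspn and Ogn differed by -2.03 (-1.19 by another probe), -1.68, -1.49 and -1.14, and the matricellular Ccn3 by -2.44. Dcn, a fibroblast proteoglycan, differed by -0.86 (-0.85). Vcan, the large hyaluronan-binding proteoglycan of provisional matrix, was higher: -0.79, -1.60 and -1.43 in WT against 0.18, -0.06 and 0.09 in GR-C3, a difference of 1.34 ± 0.18 (1.58 ± 0.10), with smaller differences of 0.07 and 0.46 by other probes.

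Collagens of other tissues were split, with 6 of 28 higher and 6 lower (8 and 6), and the split moved to 4 higher and 7 lower under quantile normalization. With slide as a block only 1 was higher and 2 were lower. Col1a1, the main fibroblast collagen, was not called (0.30, and 0.20). Col23a1, a transmembrane collagen, lay at -1.01, -1.71 and -1.52 in WT and at -4.50, -4.34 and -4.14 in GR-C3, a difference of -2.91 ± 0.18 (-2.71). Col18a1, a basement membrane collagen, lay at 2.41, 2.22 and 2.24 in WT and at 3.37, 3.32 and 3.44 in GR-C3, a difference of 1.08 ± 0.13 that was not called with slide as a block (adjusted p = 0.066). Enzymes that crosslink and process collagen had 6 of 27 higher and 5 lower over all arrays, and 11 higher and 4 lower without WT vehicle replicate 1, which moved this count by over 1.5 times. Leaving out another vehicle array gave as few as 3 higher (WT replicate 3, GR-C3 replicate 1 or 3) or 2 lower (GR-C3 replicate 2 or 3), and slide as a block gave 3 and 1. Lox, the lysyl oxidase that crosslinks fibrils, lay at 5.81, 5.40 and 5.40 in WT and at 4.70, 4.65 and 4.77 in GR-C3, a difference of -0.83 ± 0.14 that was not called with slide as a block (adjusted p = 0.137). Its relative Loxl2 lay at 4.11, 4.06 and 4.03 in WT and at 5.25, 5.27 and 5.14 in GR-C3, a difference of 1.15 ± 0.12 (1.17), so these crosslinking enzymes went in opposite directions.

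Matrix proteases and their inhibitors had 11 of 28 higher and 9 lower, and 4 and 7 with slide as a block. Mmp3, the stromelysin of fibroblasts, lay at 1.25, 1.27 and 1.30 in WT and at -0.70, -0.79 and -0.43 in GR-C3, a difference of -1.91 ± 0.12 (-1.92). The gelatinase Mmp9 was higher by 1.90 (1.80) and the metalloprotease Adam19 by 1.71 (1.45), with 1.88 and 0.23 by other probes. The membrane-bound inhibitor Reck was lower, at -1.73 (-1.67). Has2, the main hyaluronan synthase, depended on WT vehicle replicate 1: its level was -1.61 on that array, 1.49 and 1.47 on the other WT arrays and 2.80, 3.00 and 2.98 in GR-C3, and the difference was 2.47 ± 0.64 with that array and 1.44 ± 0.15 without it, and by a second probe 1.44 and 0.57. Of 21 integrins 5 were higher and 6 lower (3 higher without WT vehicle replicate 3 or GR-C3 vehicle replicate 1 or 2). With slide as a block 2 were higher and 2 lower. The called share of the integrins was 52.4% in both fits, against 24.7% (27.3%) of all autosomal genes. The cartilage integrin Itga10 differed by -1.62 (-1.34) and was not called with slide as a block (adjusted p = 0.261).

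Wnt signalling differed at the level of ligands, receptors and antagonists. Wnts are secreted signals that act through Frizzled receptors, and 8 of 32 ligands and receptors were higher and 9 lower. Without GR-C3 vehicle replicate 1 there were 5 and 5, and with slide as a block 4 and 4. Among ligands, Wnt4, a signal of kidney, gonad and joint, lay at -2.81, -3.15 and -3.35 in WT and at -0.94, -1.01 and -1.12 in GR-C3, a difference of 2.08 ± 0.16 (2.23), and Wnt10b was higher by 1.60 (1.42). Among receptors, Fzd1 lay at 3.85, 3.24 and 3.35 in WT and at 1.65, 1.54 and 1.65 in GR-C3, a difference of -1.87 ± 0.17 (-1.68). Fzd9 lay at 0.87, -0.89 and -0.75 in WT and at -3.04, -3.19 and -2.99 in GR-C3, a difference of -2.82 ± 0.36 (-2.25 ± 0.10). Of 21 antagonists and targets, 4 were higher and 8 lower. The secreted Frizzled-related Sfrp1 lay at 1.26, 0.41 and 0.80 in WT and at -1.24, -1.37 and -1.49 in GR-C3, a difference of -2.19 ± 0.18, while the Lrp-binding Dkk2 and Sostdc1 were higher by 2.01 (1.85) and 1.64 (1.68). Lef1, the nuclear factor that carries the Wnt signal and is also its target, lay at -4.90, -4.29 and -4.30 in WT and at -1.89, -1.82 and -1.95 in GR-C3, a difference of 2.61 ± 0.27 (2.41 ± 0.27). Axin2, a general feedback target, was not called (0.28, and 0.13).

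The BMP list had 4 of 36 higher and 6 lower (7 and 9), and held the smallest p of all named genes. Its called share was 27.8% (44.4%), against 24.7% (27.3%) of all autosomal genes. With single arrays left out of the all-array fit, 3 to 7 were higher and 6 to 9 lower. Gdf10, a BMP family ligand with its probe at chr14:31365575-31365634 in build mm7, lay at 3.15, 3.12 and 3.32 in WT and at -2.43, -2.51 and -2.31 in GR-C3. The difference was -5.61 ± 0.10 (49.0-fold lower, adjusted p = 1.3e-10), and -5.64 ± 0.10 without WT vehicle replicate 1. The antagonist Grem1, which restrains BMP in the limb bud, was lower, at -1.02 (-1.01), and not called with slide as a block (adjusted p = 0.121). In the FGF list 7 of 27 were higher and 8 lower (6 and 10), and 3 and 4 with slide as a block. Fgf18, a ligand that acts on cartilage and bone, lay at 2.22, 1.94 and 1.95 in WT and at -0.17, -0.21 and -0.53 in GR-C3, a difference of -2.34 ± 0.14 (5.06-fold lower). Fgf5, a secreted ligand known from the hair cycle, lay at -6.09, -4.38 and -4.49 in WT and at -1.72, -1.67 and -1.81 in GR-C3, a difference of 3.25 ± 0.35 (2.70 ± 0.12). Spry1, a feedback inhibitor that FGF signals induce, was higher by 1.73 (1.34). In the TGF-beta list 5 of 23 were higher and 2 lower (3 higher without WT vehicle replicate 3 or GR-C3 vehicle replicate 1 or 3), with the receptor Tgfbr2 at -0.56 (-0.58). The called share of that list was 30.4% in both fits, against 24.7% (27.3%) of all autosomal genes. With slide as a block it had 2 higher and 1 lower.

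The insulin-like growth factors, which drive fetal growth, had 5 of 16 higher and 6 lower (4 and 5), and 3 higher without any 1 vehicle array other than WT replicate 1. Igf2, the imprinted fetal ligand with its probe at chr7:139078075-139078135 in build mm7, lay at 1.73, 1.79 and 2.15 in WT and at 4.21, 4.13 and 4.27 in GR-C3, a difference of 2.31 ± 0.12 (4.97-fold) and 2.23 ± 0.12 (4.70-fold). The binding protein Igfbp5, which is stored in the matrix, lay at 0.63, 0.79 and 0.70 in WT and at 3.19, 3.12 and 3.00 in GR-C3, a difference of 2.40 ± 0.10, with 1.04 by another probe. Igfbp2 lay at 7.77, 7.99 and 7.92 in WT and at 6.64, 6.71 and 6.48 in GR-C3, a difference of -1.28 ± 0.12 (-1.35), and Igfbp4 differed by -2.17 (-2.47), so the binding proteins went both ways. Of the EGF list 5 of 16 were higher and 2 lower, and of the PDGF and VEGF list 5 of 20 were higher and 3 lower. Their called shares were 43.8% (56.2%) and 40% (45%), against 24.7% (27.3%) of all autosomal genes. With slide as a block the EGF list had 2 higher and 1 lower, and the PDGF and VEGF list 5 and 1. The Notch targets Nrarp and Heyl were higher by 2.36 (2.11) and 2.30 (1.82), although Nrarp was well above background on only 1 of 3 WT arrays. The Notch list as a whole had 3 of 19 higher and 3 lower, a called share of 31.6% (42.1%), against 24.7% (27.3%) of all autosomal genes. Guidance factors, which steer axons and cells, had 8 of 39 higher and 11 lower (9 and 10, and 4 and 5 without WT vehicle replicate 2 as well), with Sema3d at -2.02 (-2.18). The called share of the guidance list was 48.7% in both fits, against 24.7% (27.3%) of all autosomal genes.

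Chemokines and cytokines had 12 of 32 higher and 6 lower (12 and 8), and 5 and 5 with slide as a block. Without GR-C3 vehicle replicate 3 there were 7 higher. Ppbp, a neutrophil-attracting CXC chemokine known from platelets, lay at -5.25, -4.22 and -4.37 in WT and at 0.50, 0.52 and 0.58 in GR-C3, a difference of 5.15 ± 0.22 (35.4-fold), and 4.83 ± 0.12 (28.4-fold). Its neighbour in function Cxcl5 lay at -5.19, -3.02 and -2.60 in WT and at -1.05, -1.17 and -0.93 in GR-C3, a difference of 2.55 ± 0.50 (1.76 ± 0.16). Il6 differed by 1.25 ± 0.40 (adjusted p = 0.0412) and by 0.63 ± 0.14 without WT vehicle replicate 1, and was not called with slide as a block (adjusted p = 0.255). Interferon-induced genes, which respond to viral RNA and interferon, had 14 of 42 lower and 2 higher (17 and 2), with a median of -0.21 (-0.23), and 13 lower and 1 higher with slide as a block. Without WT vehicle replicates 1 and 3 there were 11 lower. Under normexp on the deposited backgrounds only 1 was called lower. Ifit3 lay at -0.40, 0.59 and 0.75 in WT and at -0.88, -0.91 and -1.01 in GR-C3, a difference of -1.25 ± 0.24 (-1.60 ± 0.10). Its relative Ifit1 differed by -1.19 (-1.54), the tetherin gene Bst2 by -1.22 (-1.22, with no value on WT vehicle replicate 1) and the DNA sensor family gene Ifi204, one of the higher ones, by 0.69 (0.67). Immediate early genes, the first to respond to growth factors, had 13 of 25 higher and 1 lower, median 0.45, with Egr4 at 1.87 (1.65), Fosl1 at 1.16 (0.85) and Jun at 1.04 (0.80). Slide as a block gave 6 higher, as without GR-C3 vehicle replicate 2, and 8 were without GR-C3 vehicle replicate 3.

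Mitosis genes were higher in GR-C3 cells by small amounts. Of 46 measured, 25 were called higher and none lower by limma (2 were lower at an unadjusted p under 0.05), with a median of 0.41, against 0.11 over all autosomal genes. Leaving out single arrays gave 18 to 26 higher, and 13 to 30 where WT vehicle replicate 1 was already left out, 13 being without WT vehicle replicate 2. With slide as a block 6 were higher. Plk1, the kinase that starts mitosis, lay at 2.87, 2.36 and 2.53 in WT and at 3.45, 3.51 and 3.42 in GR-C3, a difference of 0.88 ± 0.13 (1.02 ± 0.11). Cenpa, the histone of the centromere, lay at 0.33, 0.50 and 0.70 in WT and at 1.48, 1.53 and 1.34 in GR-C3, a difference of 0.95 ± 0.11. Aurka, a kinase of the spindle poles, lay at 2.98, 2.80 and 2.89 in WT and at 3.65, 3.72 and 3.61 in GR-C3, a difference of 0.77 ± 0.11 (0.82). Ccnb1, the cyclin of mitotic entry, lay at 0.40, 0.07 and 0.21 in WT and at 0.93, 0.90 and 0.86 in GR-C3, a difference of 0.67 ± 0.10 (0.76). None of these kinases and cyclins overlapped between the genotypes. Ccnb2, Cdk1 and Mki67 differed by 0.71 (0.79), 0.61 (0.49) and 0.47 (0.56), and lost their calls with slide as a block (adjusted p between 0.0706 and 0.604). Other probes gave smaller differences of 0.49 and 0.41 for Ccnb1, 0.35 for Cdk1 and 0.52 for Cenpa.

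Mitotic promoters are known for CCAAT boxes, bound by the factor NF-Y, and for the CHR element TTTGAA, which represses them outside mitosis, so both were searched in the 250 bases before the start site on both strands, where the motifs may overlap by a base (RefSeq, GRCm38.p6). Of 38 mitosis genes with a promoter sequence, 27 held CCAAT (71.1%), 13 held TTTGAA (34.2%) and 12 held both (31.6%). The shares among 12686 autosomal genes tested were 39.3%, 14.3% and 5.1%. The windows of 5 members, a choice among those with a match, are shown with the matched letters in capitals, ATTGG being CCAAT on the other strand. Boxes were single in Plk1 and repeated in the others shown. Of the windows not shown, that of Bub1b held 1 match and those of Ccnb2 and Cdk1 held 4 and 5. The number of boxes was not set against the size of the difference.
Plk1, chr7:122159413-122159433, plus strand: ccccgcggCCAATcagcaacg
Ccnb1, chr13:100786541-100786593, minus strand: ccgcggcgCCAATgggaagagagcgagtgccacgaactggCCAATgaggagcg
Aurka, chr2:172370577-172370629, minus strand: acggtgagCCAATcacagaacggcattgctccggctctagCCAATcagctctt
Cdc20, chr4:118437344-118437404, minus strand: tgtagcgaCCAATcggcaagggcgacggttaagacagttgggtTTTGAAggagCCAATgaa
Cenpa, chr5:30666769-30666812, plus strand: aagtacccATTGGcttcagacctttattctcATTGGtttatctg

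DNA replication genes were higher in 15 of 42 and lower in 1 (12 and 2), median 0.33 (0.23), and 3 were higher with slide as a block. Without GR-C3 vehicle replicate 1, 2 or 3 there were 9, 7 and 8 higher, and without WT vehicle replicate 1 together with replicate 2 or 3 there were 4 and 6. The clamp loader gene Rfc5, the dUTPase gene Dut and the uracil glycosylase gene Ung differed by 0.76 (0.67), 0.62 (0.71) and 0.85 (0.63), and Rfc5 and Dut were not called with slide as a block (adjusted p = 0.166 and 0.0538). Regulators of the G1 phase had 3 of 30 higher and 4 lower (6 and 6), a called share of 23.3% (40%), against 24.7% (27.3%) of all autosomal genes. Mycn, a driver of progenitor growth, lay at -6.81, -5.35 and -5.22 in WT, 2 of 3 well above background, and at -3.94, -3.90 and -3.71 in GR-C3, a difference of 1.95 ± 0.33 (1.44), while another probe gave 0.20. The pocket protein Rbl2, which holds cells in quiescence, differed by -1.05 (-0.97) and was not called with slide as a block (adjusted p = 0.448). Imprinted genes, expressed from 1 parental allele and concerned with fetal growth, had 5 of 22 higher and 5 lower. Mest lay at 5.0, 4.44 and 5.01 in WT and at 2.33, 2.14 and 2.33 in GR-C3, a difference of -2.55 ± 0.15 (5.86-fold lower). H19, the noncoding partner of Igf2, was higher by 0.97 ± 0.19 (0.92) and was not called with slide as a block (adjusted p = 0.323). Nnat lay at -4.86, -3.18 and -3.19 in WT and at -0.76, -0.82 and -0.83 in GR-C3, a difference of 2.94 ± 0.36 (2.38 ± 0.11).

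Genes known to respond to glucocorticoids were the list that WT vehicle replicate 1 moved most. Of 27 measured, 3 were higher and 4 lower over all arrays, median -0.51, and 9 were higher and 5 lower without WT vehicle replicate 1, median 0.24. The called share was 25.9% (51.9%), against 24.7% (27.3%) of all autosomal genes. Fkbp5, the co-chaperone that GR induces, lay at 1.51 on that array, at -2.64 and -2.74 on the other WT arrays and at -2.24, -2.38 and -2.24 in GR-C3; it was not called in either fit, and its difference turned from -1.0 to 0.40 without that array. Pdk4, a kinase that spares glucose, lay at 3.45 on that array, 1.39 and 1.33 on the others and 0.22, 0.22 and 0.02 in GR-C3, a difference of -1.90 ± 0.44 and -1.21 ± 0.12. Lcn2, an iron-siderophore carrier, was not well above background on any GR-C3 array and was at least 8.15-fold lower with that array and at least 2.47-fold lower without it. Crispld2, a secreted mesenchymal protein, lay at -0.19 on that array, -3.39 and -3.50 on the others and 0.07, -0.10 and -0.10 in GR-C3, a difference of 2.32 ± 0.67 and 3.40 ± 0.11. With all other arrays kept, the first of these was not called without WT vehicle replicate 2 or 3 or without any 1 GR-C3 vehicle array.

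Several of the largest autosomal differences lay outside these lists. Cytl1, a cytokine-like protein of cartilage, lay at 2.10, 0.61 and 1.68 in WT and at -4.78, -4.58 and -4.94 in GR-C3, a difference of -6.23 ± 0.33 (75.2-fold lower), and 60.3-fold lower without WT vehicle replicate 1. Epyc, a cartilage proteoglycan, differed by -3.69 (-3.61), Mstn, the inhibitor of muscle growth, by -3.71 (-3.79) with 2 of 3 GR-C3 arrays above background, the matrix protein gene Abi3bp by -3.38 (-3.57) and the immune-inhibitory membrane protein gene Cd200 by -3.40 (-3.58). Hp, the haemoglobin scavenger, differed by -3.94 (-3.28). On the higher side, Cdh16, a cadherin of kidney epithelium, differed by 4.04 ± 0.21 (16.5-fold), the inner ear matrix protein gene Coch by 3.38 (3.22), the neuropeptide gene Nts by 3.27 (3.16) and the granzyme gene Gzme by 3.35 (3.01). Arg1, the arginase of the urea cycle, was not well above background on any WT array and was at least 9.02-fold higher (at least 9.28-fold without that array).

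The Dex arrays hold the same genotypes in cells that did not enter the vehicle difference, although the 4 groups share the estimate of spread. No slide held both Dex groups either: the WT Dex arrays were on slides 2 and 3 and the GR-C3 Dex arrays on slide 4. The 5 sex-linked genes checked were also called in the same direction under Dex. A difference that recurs under Dex therefore cannot tell genotype from slide or sex. Under Dex 5843 autosomal genes (29.6%) were called between genotypes, 17.5% higher and 12% lower. Of the 4876 genes called under vehicle, 3618 (74.2%) were called under Dex in the same direction, 7 in the opposite direction and 1251 were not called. Of the 5385 called without WT vehicle replicate 1, 3999 (74.3%) were called in the same direction under Dex and 62 in the opposite one, where 40.6% of all genes were called under Dex. Among large differences, 983 of the 1106 genes of at least 2-fold were called in the same direction and 3 in the opposite one. Hoxd13 differed by 5.68 under Dex, Cnmd by -8.46 with GR-C3 signals near background, Col2a1 by -3.45, Gdf10 by -5.33, Des by 3.25 and Igf2 by 1.85. The list counts under Dex were 27 Hox genes higher, 19 skeletal lineage genes lower, 27 mitosis genes and 23 DNA replication genes higher, and 13 interferon-induced genes lower. H19 did not recur (0.15, adjusted p = 0.557). The genotype difference itself changed with Dex (the interaction) in no autosomal gene over all arrays by limma (1183, 5.99%, at an unadjusted p under 0.05), and in 234 (1.18%) without WT vehicle replicate 1, of which 134 were called under vehicle. Among the 234, Has2 had an interaction of 1.72 (adjusted p = 0.00411), Fgf5 of 1.35 (adjusted p = 0.00439), Cxcl5 of 1.96 (adjusted p = 0.00396) and Fkbp5 of -1.65 (adjusted p = 0.00648). Positive values mean that GR-C3 cells lay further above WT under Dex.

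**Figure D5:**
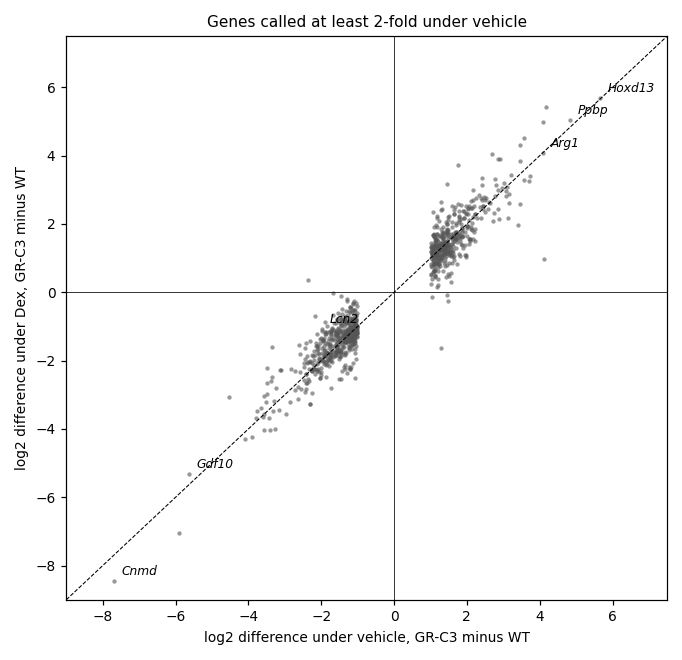
Genotype difference under Dex against that under vehicle (log2, GR-C3 minus WT, vehicle without WT vehicle replicate 1) for the 880 autosomal genes called at 2-fold or more in both vehicle fits; the dashed line is equality. Of these genes 875 have the same sign in both.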

How the data were processed

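RNA was hybridised to 12 one-colour Agilent arrays. The unit of the deposited scanner files is linear spot intensity, which per the file headers was background-subtracted with Feature Extraction 9.5.3.1 and not scaled between arrays. The same values stood in the deposited series matrix. The build of the probe positions was mm7, per the file headers. The expression value was the log2 processed signal minus the log2 75th percentile of the non-control spots of its array, a percentile that lay between 884 and 1821. Control spots and outlier spots were left out, and spots of a probe were averaged. A probe needed a signal well above background on every array of some group (30934 of 41174 kept), and the probe with the highest mean stood for a gene, which gave 20833 genes. Of the probes, 23082 were named by accession, 6582 by symbol and 3073 by synonym in a RefSeq table, and 8437 by the file's own name.

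The genotype difference came from limma 3.58.1 (R 4.3.3), with lmFit and eBayes on a model of group means, over all 12 arrays or over 11 without WT vehicle replicate 1. P-values were adjusted by Benjamini-Hochberg over all genes tested, and autosomal genes are reported. The fit was tested on simulated data. Where a probe was dim on all arrays of a group, its difference is a bound, written "at least": the mean of the bright group was divided by the mean of a floor. On each dim array the floor was the probe's signal or the lowest signal called well above background, whichever was higher. Named genes were the 15 highest and 15 lowest called differences of each fit without overlap, called members of the gene lists, and 4 checks; a choice of these is printed, and some genes are not reported here. Summed signals of a list are sums of linear signals divided by the 75th percentile. The comparison and the gene lists were chosen with earlier results of these data known. Alternatives were background correction, scaling, probe filters, probe averaging, vehicle arrays only, slide as a block, the replicate number as a block and leaving out each array.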

Additional observations from a re-analysis of the deposited data

How the results depend on the processing

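Counts of called genes depended most on background correction and slide. Over all arrays 4876 genes were called, and 5385 without WT vehicle replicate 1. Normexp on the deposited local backgrounds gave 356 and 279, and 220 and 223 genes called in the same direction under Dex. Some deposited local backgrounds carried outlier calls, and with these replaced normexp gave 4150 and 4564. Slide as a fixed block gave 1526 in both fits, with 1293 shared with Dex, since the array on slide 1 then drops out. Leaving out single arrays gave 3056 to 5385 over all arrays and 2392 to 6522 without WT vehicle replicate 1. The counts shared with Dex were then 2554 to 3999 and 2101 to 4985. The lowest counts came without GR-C3 vehicle replicate 2 (3056) and, where WT vehicle replicate 1 was already left out, without WT vehicle replicate 2 (2612, and 2298 shared with Dex) or 3 (2392, and 2101), which leaves 1 WT vehicle array whose spread is taken from the other groups. Quantile normalization (4856 and 5590), median scaling (4553 and 4959), the probe filters (3985 to 5438), the mean of the probes of a gene (4558 and 5175), vehicle arrays only (3646 and 6883) and slide as a random block (3405 and 3841) stayed within 1.5 times.

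With the replicate number as a block, 4765 and 6341 genes were called. The numbers did not pair the samples: the deviations of same-numbered arrays correlated at -0.064, 0.034 and -0.034.

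Of 544 differences of 272 genes (each in both fits), 540 kept direction and side of the threshold under median scaling, 537 under quantile normalization, 388 with slide as a fixed block and 159 under normexp. Under normexp the difference of Ptprc turned to 0.0291, of Sox5 to 0.26 over all arrays and to 0.39 without WT vehicle replicate 1, and there of Lcn2 to 0.38, Trp63 to 0.16 and Nr3c1 to -0.0224. Nr3c1 turned to -0.0828 and -0.38 with the mean of its probes and to -0.0279 under quantile normalization, and Fkbp5 turned to 0.55 with slide as a fixed block and to 0.40 without WT vehicle replicate 1; leaving out other arrays took it to -1.72 at the lowest. The cause was not tested. The number of arrays, and for dim probes the signal over background, limits these values.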

Other observations

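The share of genes called under vehicle varied between autosomes from 21.2% (chromosome 7) to 31.0% (chromosome 3). Within 10 Mb of Nr3c1, the edited gene, 55 of 182 genes (30.2%) were called over all arrays and 60 (33.0%) without WT vehicle replicate 1. Farther away on the same chromosome 83 of 322 (25.8%) and 96 (29.8%) were called. These shares were not tested against each other.

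The palindromic glucocorticoid response element, searched by its consensus, was found on either strand in the 250 bases before the start site of 53 of 12686 autosomal genes tested (0.418%). It was found in 1 of 704 genes called at 2-fold or more (0.142%) and in 3 of 21 glucocorticoid-responsive genes with a promoter sequence (14.3%). The SOX core motif ACAAAG was searched in the same way. It was found in 5 of 23 skeletal lineage genes with a promoter sequence (21.7%) and in 15.9% of the 12686 autosomal genes.

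Adipocyte markers had 3 of 13 called higher and 2 lower, with summed signals of 6.4 to 16.7 in WT, the highest being WT vehicle replicate 1, and 6.09 to 6.46 in GR-C3. Their called share was 38.5% (30.8% without WT vehicle replicate 1), against 24.7% (27.3%) of all autosomal genes. Hedgehog signalling had 2 of 13 higher and 2 lower, a called share of 30.8%, against 24.7% of all autosomal genes. The ligand Dhh differed by 1.24 (1.08 without WT vehicle replicate 1). The receptor partner Gas1 differed by -1.36 (-0.97) and was not called with slide as a block (adjusted p = 0.407). The hyaluronan list had 4 of 10 higher and 1 lower, and Cemip, which degrades hyaluronan, was the lower one, at -1.08 (-1.21), and at -0.42, -1.02 and -1.69 by other probes. Erythroid and liver markers had 1 of 9 higher and 2 lower, a called share of 33.3% in both fits, against 24.7% (27.3%) of all autosomal genes. Alb and Ttr were not well above background on any vehicle array.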
